A study of Mus musculus with 9 samples.

Results

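LINE-1 copies annotated as L1_Mm, L1_Mus1, L1_Mus2, L1_Mus3 or L1_Mus4 were examined copy by copy in RNA-seq libraries of mouse embryonic stem cells (ESCs) with long or short telomeres. The copies were chosen by repeat name alone, whatever their expression. They numbered 10052 of the 623916 transposable element (TE) copies listed and of the 106835 copies of the L1 family. L1_Mus3 had 3964 copies, L1_Mus1 2740, L1_Mus2 1741, L1_Mus4 942 and L1_Mm 665. The study asked how telomere attrition alters retrotransposon expression and compared 3 groups of 3 libraries, all from C57BL/6 ESCs with feeder cells removed. WT cells carried Terc, the gene for the RNA template of telomerase. G1 Terc-/- ESCs lack Terc and came from intercrosses of heterozygous mice, so that they are the first generation without it. G4 Terc-/- ESCs lack Terc too and were derived from blastocysts of intercrossed G3 Terc-/- mice, so that telomeres had shortened over successive generations. The labels do not say that the 3 libraries of a group came from separate lines or cultures, and the study's methods state another number of replicates. The p-values below may therefore measure technical spread only, and the ESC line and the generation cannot be told apart. Terc is no TE copy, so the deletion could not be checked in these counts.

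LINE-1 elements are retrotransposons that copy themselves through an RNA intermediate. A full-length element has a promoter in its 5′ end and reading frames for an RNA-binding protein and for a protein with endonuclease and reverse transcriptase activity. Most insertions are cut short at their 5′ end and have no promoter, so that RNA from such a fragment is often part of a longer transcript of a gene or of a neighbouring repeat. The L1_Mus and L1_Mm names stand for mouse LINE-1 lineages other than the young L1Md_A, L1Md_T and L1Md_Gf families, which hold the copies known to be active in the mouse. In ESCs LINE-1 is held down by DNA methylation and by histone H3 lysine 9 methylation, the latter directed in part by zinc finger proteins.

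The copies were mostly fragments with few reads. Their median length was 673 b, and 372 of them, or 3.70%, reached 5 kb. By the GENCODE annotation 5620 lay in introns, 220 lay at least 50% in exons, 1351 lay within 5 kb of a gene and 2861 lay farther from any gene. Over the 9 libraries together, 7335 copies (73.0%) had fewer than 5 counts and 184 had 100 or more. The expression filter left 268 of the 10052 copies, and these held 69.6% of the counts of all copies. Copies that did not pass are described below only as a pool. The deposited values are fractional for 1415 of the copies, where the authors' counting divided reads between places, and the copies with whole values only held 64.9% of the counts.

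A pair of L1_Mus1 fragments on chromosome 12, chosen after their values were seen, is an example of similar copies that moved in opposite directions. No other pair was compared. Both are 406 b long and belong to an array of such fragments described below. The first lies in Gm46339, a gene model still awaiting experimental evidence, and the second in Zfp125, a transcribed pseudogene of a zinc finger gene. Both are in the same orientation as their transcript. The first 300 bases of each are printed in LINE-1 orientation, read from GENCODE transcripts on GRCm38 (mm10), and capitals mark the bases at which the pair differ.
Gm46339 copy, chr12:19303880-19304179, plus strand: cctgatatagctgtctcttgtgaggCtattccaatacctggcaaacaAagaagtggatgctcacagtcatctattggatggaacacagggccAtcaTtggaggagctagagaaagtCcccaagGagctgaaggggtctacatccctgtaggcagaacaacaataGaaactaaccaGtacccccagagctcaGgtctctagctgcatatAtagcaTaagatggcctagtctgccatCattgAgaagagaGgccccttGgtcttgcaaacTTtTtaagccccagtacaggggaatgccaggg
Zfp125 copy, chr12:20899527-20899826, minus strand: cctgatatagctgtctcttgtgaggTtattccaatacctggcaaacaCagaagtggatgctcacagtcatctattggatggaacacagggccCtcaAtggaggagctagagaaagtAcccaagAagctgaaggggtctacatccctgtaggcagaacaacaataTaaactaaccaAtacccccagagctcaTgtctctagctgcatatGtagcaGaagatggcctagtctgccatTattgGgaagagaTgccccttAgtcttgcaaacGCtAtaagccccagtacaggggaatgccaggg
Over the full length the copies aligned without a gap and were 93.3% identical, with 27 mismatches in 406 positions and a longest identical run of 54 b. The Gm46339 copy was at 14.6, 16.7 and 11.5 CPM in WT, at 17.8, 18.6 and 12.1 in G1 Terc-/- and at 42.9, 35.7 and 45.9 in G4 Terc-/- ESCs. It rose in G4 Terc-/- against WT by 1.53 ± 0.29 (log2 fold change ± SE, adjusted p = 2.2e-05). The Zfp125 copy was at 24.0, 32.4 and 24.0 CPM in WT, at 24.0, 19.5 and 15.4 in G1 Terc-/- and at 18.7, 16.5 and 9 in G4 Terc-/- ESCs, and it fell by 0.87 ± 0.32 on the log2 scale (adjusted p = 0.026). CPM are counts per 1000000 counts in all listed copies after TMM scaling. Adjusted p comes from the quasi-likelihood test of edgeR, adjusted by Benjamini-Hochberg over all copies or all repeat names tested, and calls were made below 0.05.

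L1_Mus1, L1_Mus3 and L1_Mm were higher in G4 Terc-/- than in WT ESCs when all copies of a name were summed, and L1_Mus2 and L1_Mus4 were not distinguishable from WT. Summed L1_Mus1 was at 7597, 7519 and 7314 CPM in WT, at 7820, 7891 and 7997 in G1 Terc-/- and at 9384, 10674 and 10366 in G4 Terc-/- ESCs. All 3 G4 libraries thus lay above the other 6. The rise of L1_Mus1 in G4 Terc-/- against WT was 0.44 ± 0.04 (log2, adjusted p = 3.7e-09).

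Summed L1_Mus3 was at 4085, 3677 and 3668 CPM in WT, at 3727, 3982 and 4035 in G1 Terc-/- and at 4636, 4625 and 4509 in G4 Terc-/- ESCs. It rose by 0.27 ± 0.04 (log2, adjusted p = 2.9e-05). With only the copies whose values are whole, the L1_Mus3 sum was -0.02 (log2, adjusted p = 0.81). Summed L1_Mm was at 1652, 1350 and 1506 CPM in WT, at 1126, 1288 and 1298 in G1 Terc-/- and at 2114, 1829 and 1822 in G4 Terc-/- ESCs. The G4 libraries were again the highest and the G1 libraries the lowest. L1_Mm rose by 0.35 ± 0.07 (log2, adjusted p = 2.2e-04) in G4 Terc-/- against WT, and with whole values only it was at 0.13 (adjusted p = 0.31).

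Summed L1_Mus2 averaged 1896 ± 104 CPM in WT, 2024 ± 111 in G1 Terc-/- and 1905 ± 19.3 in G4 Terc-/- ESCs (mean ± SD, n = 3). Its log2 fold change of 0.01 ± 0.05 in G4 Terc-/- against WT did not pass the test (adjusted p = 0.94), but with library totals in place of TMM, a scaling that moved the median of all names by 0.13, it was 0.14 and passed (adjusted p = 0.030). L1_Mus4 averaged 778 ± 92.8, 814 ± 55.4 and 767 ± 21.4 CPM in WT, G1 Terc-/- and G4 Terc-/- ESCs, with a log2 fold change of -0.02 ± 0.07 (adjusted p = 0.84), which was 0.11 with library totals. Of all 853 repeat names tested, 23.0% rose and 23.4% fell in this comparison beside the 3 rises and no fall among the 5 names. Per kilobase of listed sequence L1_Mus1 was the most abundant name in WT at 2.21 CPM per kb, before L1_Mm at 1.90, L1_Mus3 at 0.870, L1_Mus2 at 0.861 and L1_Mus4 at 0.707.

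**Figure D1:**
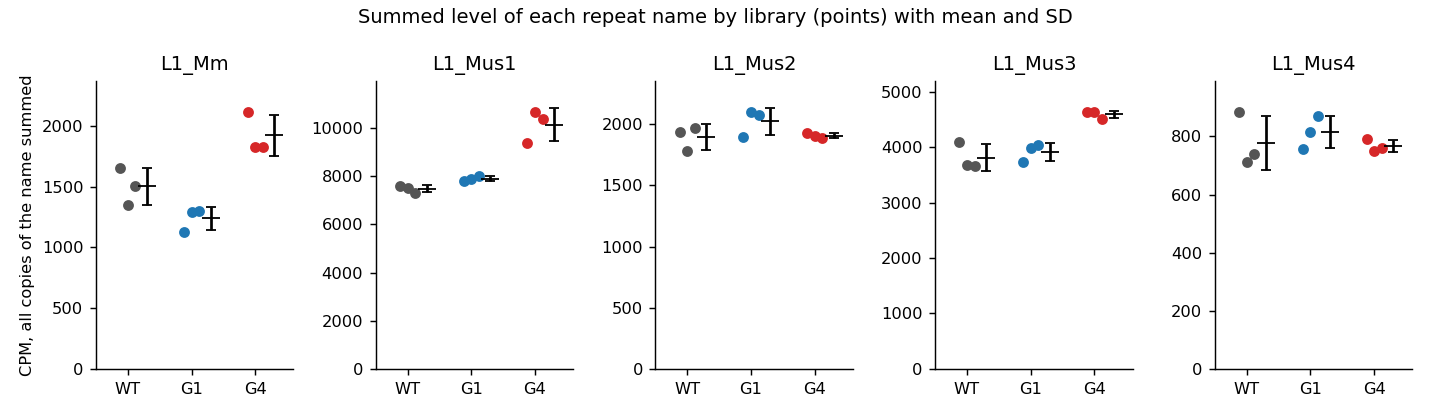
Summed CPM of each repeat name on the y axis (from 0) in the 9 libraries, grouped on the x axis as WT, G1 Terc-/- and G4 Terc-/-; points are libraries and the bar beside them is the mean with SD. In L1_Mus1, L1_Mus3 and L1_Mm the 3 G4 libraries lie above all others, whereas the groups of L1_Mus2 and L1_Mus4 overlap.

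In the direct comparison of G4 with G1 Terc-/- ESCs, L1_Mm rose by 0.63 ± 0.07, L1_Mus1 by 0.36 ± 0.04 and L1_Mus3 by 0.23 ± 0.04 on the log2 scale (adjusted p = 2.3e-04 for L1_Mus3, lower for the others). L1_Mus2 and L1_Mus4 did not pass the test. In this comparison 42.2% of all names were called in either direction. Between G1 Terc-/- and WT, where 12.3% of names were called, only L1_Mm of the 5 names passed the test, and it fell by 0.28 on the log2 scale (SE 0.07, adjusted p = 0.015). That call was lost without WT replicate 1 (adjusted p = 0.059) and without G1 replicate 1 (adjusted p = 0.085). It was lost too with whole values only (-0.24, adjusted p = 0.18) and without the largest L1_Mm copy (-0.26, adjusted p = 0.12). L1_Mus1 stood at 0.08 ± 0.04 (adjusted p = 0.24) although each G1 library was above each WT library. G1 and G4 Terc-/- values were set against the same WT libraries. Together the copies of all 5 names held between 1.45% and 1.58% of the counts in each WT and G1 library and between 2.05% and 2.07% in each G4 library. These shares are of library totals without TMM scaling. With library totals the median log2 fold change of all names was 0.13 in G4 Terc-/- against WT.

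Single copies rose more often than they fell in G4 Terc-/- ESCs. Of the 268 copies tested, 102 rose and 37 fell against WT, beside backgrounds of 21.6% of all 13278 TE copies tested that rose and 21.4% that fell. This is 38.1% and 13.8% of the L1_Mus and L1_Mm copies tested. Their median log2 fold change was 0.45 (0.22 with whole values only and 0.12 with a looser filter), against -0.02 over all copies tested and -0.13 over the 1902 tested copies of other L1 names. The rises include copies, named below, that passed the expression filter only through the G4 libraries, so that a difference was built into their choice. How many such copies there are was not counted, and all TE copies went through the same filter. By name, 55 L1_Mus1 copies rose and 13 fell of 112 tested, and 28 L1_Mus3 copies rose and 12 fell of 78. Among L1_Mm copies 8 rose and 3 fell of 24, among L1_Mus4 copies 3 rose and none fell of 16, and among L1_Mus2 copies 8 rose and 9 fell of 38. In G4 against G1 Terc-/- ESCs 85 copies rose and 25 fell, where 19.3% of all copies rose and 19.3% fell. In G1 Terc-/- against WT only 9 copies rose and 11 fell, or 3.36% and 4.10%, close to the background of 2.82% and 4.76%.

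**Figure D2:**
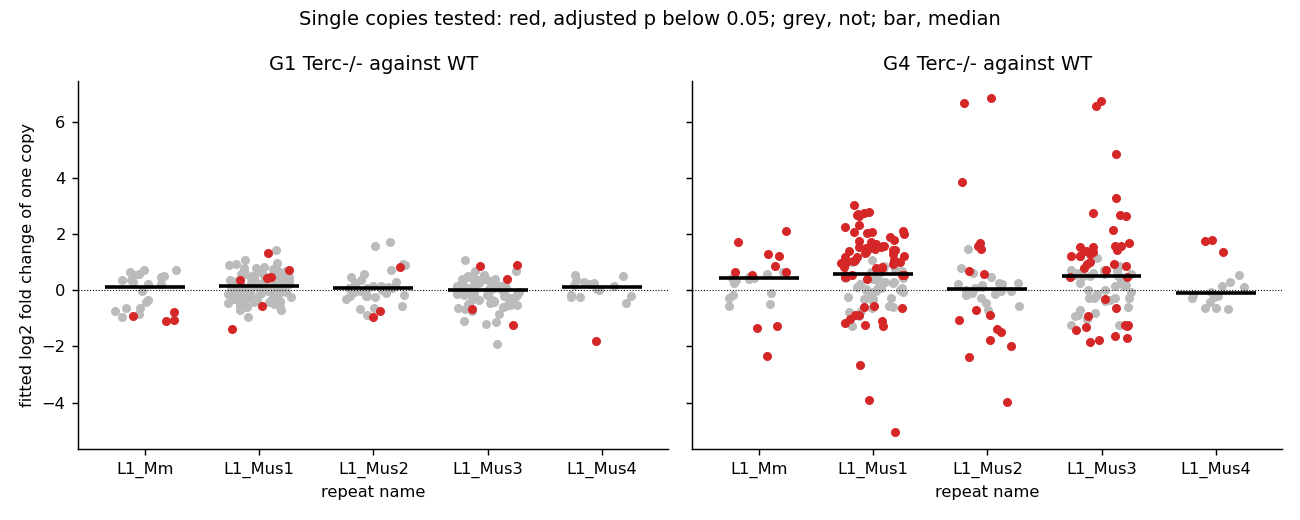
Fitted log2 fold change (y axis) of each of the 268 copies tested, by repeat name (x axis), in G1 Terc-/- against WT (left) and G4 Terc-/- against WT (right); red points had an adjusted p below 0.05, grey points did not, and bars are medians. Few copies are red on the left (9 rose and 11 fell), and on the right 102 rose and 37 fell.

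The 8 largest rises in G4 Terc-/- against WT came from L1_Mus1 and L1_Mus3, counting copies that averaged 10 or more counts over the libraries and whose WT and G4 values did not overlap. The largest was an L1_Mus3 copy of 3040 b at chr13:62107164-62110203, in introns of the lincRNA gene models Gm40977 and Gm48228. It had 4 counts in the 3 WT libraries together, 3 in the G1 libraries and 439 in the G4 libraries. The ratio of G4 to WT was 104 (95% counting interval 40.4 to 384). Its 3 G4 libraries were at 127, 138 and 156 CPM, whereas no other library exceeded 2.9. The copy passed the expression filter only through the G4 libraries, so that a difference was built into its choice. TE copies of other names within 10 kb were near silent too in WT (0.32 CPM summed) and reached 105 CPM in G4 Terc-/- ESCs.

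An L1_Mus3 copy of 1076 b at chr16:94012343-94013418, 107 b from the lincRNA gene 2410003I16Rik, was higher in both Terc-/- groups. It was at 32.3, 26.2 and 29.8 CPM in WT, at 60.6, 63.9 and 33.1 in G1 Terc-/- and at 282, 307 and 266 in G4 Terc-/- ESCs. It rose by 3.27 ± 0.17 in G4 (log2, adjusted p = 5.9e-21) and by 0.85 ± 0.20 in G1 Terc-/- against WT (adjusted p = 0.0043). The libraries of the 3 groups did not overlap, although the G1 call was lost without G1 replicate 2 (adjusted p = 0.082). Copies of other names within 10 kb went from 13.2 CPM in WT to 27.7 in G1 and 132 in G4 Terc-/- ESCs.

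Other large rises lay near zinc finger genes, near a chromosome end and in the major histocompatibility region. An L1_Mus1 copy at chr4:145541931-145543410, 2743 b from the zinc finger gene Zfp990, was between 2.1 and 4.4 CPM in the WT and G1 libraries and at 20.9, 26.6 and 21.6 in G4 Terc-/- ESCs (3.03 ± 0.50, log2, adjusted p = 2.0e-06). A nearly full-length L1_Mus1 copy of 6100 b at chr2:181940325-181946424 was at 31.3, 13.6 and 16.3 CPM in WT, at 33.4, 29.3 and 33.1 in G1 and at 120, 146 and 142 in G4 Terc-/- ESCs (2.74 ± 0.21, adjusted p = 2.3e-15). Its values are whole, it lies 41613 b from the nearest gene, and other TE copies within 10 kb reached only 12.3 CPM in G4. An L1_Mus3 copy in the sense orientation in an intron of the lincRNA gene 6030443J06Rik, chr5:22606599-22609139, rose by 2.74 ± 0.33 (adjusted p = 2.4e-09). An L1_Mus1 fragment of 180 b at chr17:36983796-36983975, 86 b from H2-M5, a class Ib major histocompatibility gene, rose by 2.71 ± 0.35 (adjusted p = 1.6e-08). Other repeats within 10 kb of this fragment moved from 100 CPM in WT to 170 in G1 and 470 in G4 Terc-/- ESCs. The other 2 of the 8 were fragments of the chromosome 12 array, at chr12:19501409-19501811 (2.69 ± 0.27) and chr12:19634058-19634468 (2.34 ± 0.49). The last of these, the Zfp990 neighbour and the 6030443J06Rik copy also passed the expression filter only through the G4 libraries. A difference was thus built into their choice as well.

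**Figure D3:**
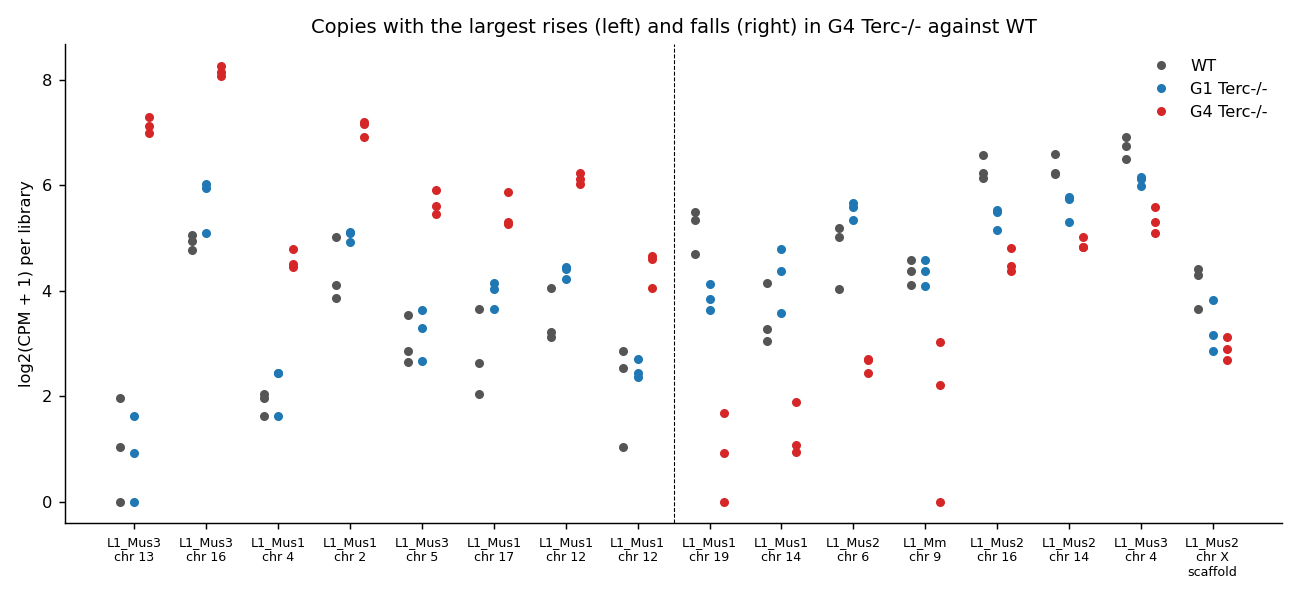
log2(CPM + 1) per library (y axis) of the 8 copies with the largest rises and the 8 with the largest falls in G4 Terc-/- against WT (x axis, by repeat name and chromosome); each point is a library. In none of the 16 do WT and G4 points overlap, which the choice of these copies required. On the left, G1 points lie close to WT for some copies and between WT and G4 for others.

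Of the tested copies, 4 others had no count in all libraries of 1 or both of the other groups and appeared in each G4 library. An L1_Mus2 fragment of 157 b at chr7:11306203-11306359, 19 b from Zscan4e, had no count in WT and G1 Terc-/- libraries and 13.9, 11.9 and 12.8 counts in the G4 libraries. Zscan4e belongs to the Zscan4 gene cluster, which is expressed in a small part of ESCs at a time and is known for a role in telomere lengthening. Against a floor of 3 counts over the 3 libraries the fragment was at least 12.2-fold higher in G4 than in WT. An L1_Mus3 copy at chrX:17711006-17711698, far from genes, had 13, 13 and 15 counts in the G4 libraries and none elsewhere, at least 12.98-fold higher than in WT. An L1_Mus2 copy of 2463 b had 16, 15 and 13 counts in the G4 libraries and none elsewhere, at least 13.9-fold higher than in WT. The fourth, an L1_Mus3 copy at chr13:61988328-61990518, had 1 count in WT, none in G1 and 40.7 in G4 Terc-/- ESCs. These copies passed the expression filter only through the G4 libraries, so that a difference was built into their choice. Their counts are small, and a count of 0 does not show that a copy is silent.

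The 8 largest falls were chosen by the same rule. An L1_Mus1 copy of 6145 b in antisense orientation in an intron of Trpm6, which encodes a magnesium channel, chr19:18803070-18809214, was at 43.8, 39.8 and 25 CPM in WT, at 11.5, 13.3 and 16.5 in G1 Terc-/- and at 2.2, 0 and 0.9 in G4 Terc-/- ESCs. The 3 groups did not overlap. With 106 counts in WT and 3 in G4, WT was higher by a ratio of 37.2 (95% counting interval 12.4 to 183), and the copy had already fallen by 1.39 in G1 Terc-/- (log2, SE 0.34, adjusted p = 0.0045). Its neighbours were at 4.0 CPM or less. The 2 listed copies in Trpm6 exons held no count in WT or G4, so that the host gene could not be followed.

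An L1_Mus1 copy of 5809 b at chr14:105909739-105915547, 12920 b from Spry2, a feedback inhibitor of receptor tyrosine kinase signalling, was covered by 32 counts over the WT libraries, by 59 over the G1 and by only 5 over the G4 libraries. The ratio of WT to G4 was 6.74 (95% counting interval 2.61 to 22.2). An L1_Mus2 copy at chr6:68835702-68837150, next to the immunoglobulin segment Igkv12-89, was at 35.5, 31.4 and 15.4 CPM in WT, at 39.7, 47.0 and 49.6 in G1 and at 4.4, 5.5 and 5.4 in G4 Terc-/- ESCs (-2.38 ± 0.38, log2, adjusted p = 1.2e-06). Repeats of other names within 10 kb of this copy averaged 18.3 CPM in WT and 4.02 in G4 Terc-/- ESCs. Over all TE copies tested on chromosome 6, 15.5% rose and 31.8% fell in G4 Terc-/- against WT. Of the 4 L1_Mus and L1_Mm copies tested there, 2 fell and 0 rose. An L1_Mm copy in a Dop1a intron, chr9:86539383-86540283, had a log2 fold change of -2.33 ± 0.48 (adjusted p = 9.3e-05). Other repeats within 10 kb of it averaged 110 CPM in WT and 48.8 in G4 Terc-/- ESCs.

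Copies in untranslated regions were among the falls, and other TE copies in exons of their genes were lower in G4 Terc-/- ESCs too. An L1_Mus2 fragment in the untranslated region of Lpp, which encodes a focal adhesion protein, chr16:24984243-24984518, was at 93.9, 69.1 and 74.0 CPM in WT, at 43.9, 34.6 and 45.2 in G1 and at 19.8, 21.1 and 27.0 in G4 Terc-/- ESCs. It fell by 1.79 on the log2 scale (SE 0.22, adjusted p = 2.6e-09). The other 6 TE copies in Lpp exons summed to 195, 158 and 62.9 CPM in the 3 groups. An L1_Mus2 fragment in the untranslated region of Tnfrsf10b, a death receptor gene, chr14:69783501-69783605, fell by 1.48 (SE 0.20, adjusted p = 5.0e-08) while 11 other exonic copies of that gene went from 973 to 646 and 404 CPM. The copy of 4781 b at chr4:47385782-47390562 lies in an intron of Tgfbr1 and reaches into a coding exon and untranslated region of it. Tgfbr1 is a transforming growth factor β receptor gene, and the copy had a log2 fold change of -1.42 ± 0.18 (adjusted p = 7.6e-09). The last of the 8, an L1_Mus2 copy of 6299 b on an unlocalized scaffold of chromosome X, had a log2 fold change of -1.37 ± 0.44 (adjusted p = 0.010). This copy would not have passed the expression filter without the WT libraries, so that a difference was built into its choice.

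A large share of the L1_Mus1 difference came from few places of the genome. On the scaling of single copies, the G4 and WT means summed over all L1_Mus1 copies differed by 3205 CPM. Of this difference 47.2% came from 31 copies within 1 Mb of a distal chromosome end and 24.2% from 41 copies in a block on chromosome 12 (17 to 25 Mb), and these held 16.4% and 11.9% of the L1_Mus1 counts. The distal end is here the last position with a listed TE copy or annotated gene. The block and the ends were examined after their values had been seen. Without the distal copies the L1_Mus1 sum rose by 0.25 (log2, adjusted p = 8.4e-06), and without the block by 0.37 (adjusted p = 7.3e-08). Copies of at least 5 kb, which could hold a complete element, had a log2 fold change of -0.14 as a sum in G4 Terc-/- against WT (adjusted p = 0.053). L1_Mus3 copies of that length rose by 0.27 as a sum (adjusted p = 0.0035).

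The chromosome 12 block holds an array of 40 L1_Mus1 fragments of 397 to 411 b between 17285587 and 24337218, with a median spacing of 135 kb, of which 20 lie on each strand. Of the 27 fragments tested 19 rose and 1 fell, the Zfp125 copy, and 25 had a log2 fold change above 0 (median 1.06, range -0.87 to 2.69). In G1 Terc-/- against WT none was called. Summed over the 40 fragments the level was 765, 704 and 720 CPM in WT, 791, 800 and 772 in G1 Terc-/- and 1458, 1509 and 1552 in G4 Terc-/- ESCs. The G4 libraries thus lay far above the other 6, with a mean of 1506 ± 47.1 CPM (SD, n = 3) against 730 ± 31.5 in WT. Only 14 of the 40 fragments have whole values, and values of single fragments are uncertain, as how reads were divided is not given in the sources used here. Of all 134 TE copies tested in the block, these fragments included, 75 rose and 6 fell, with a median of 1.03.

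**Figure D4:**
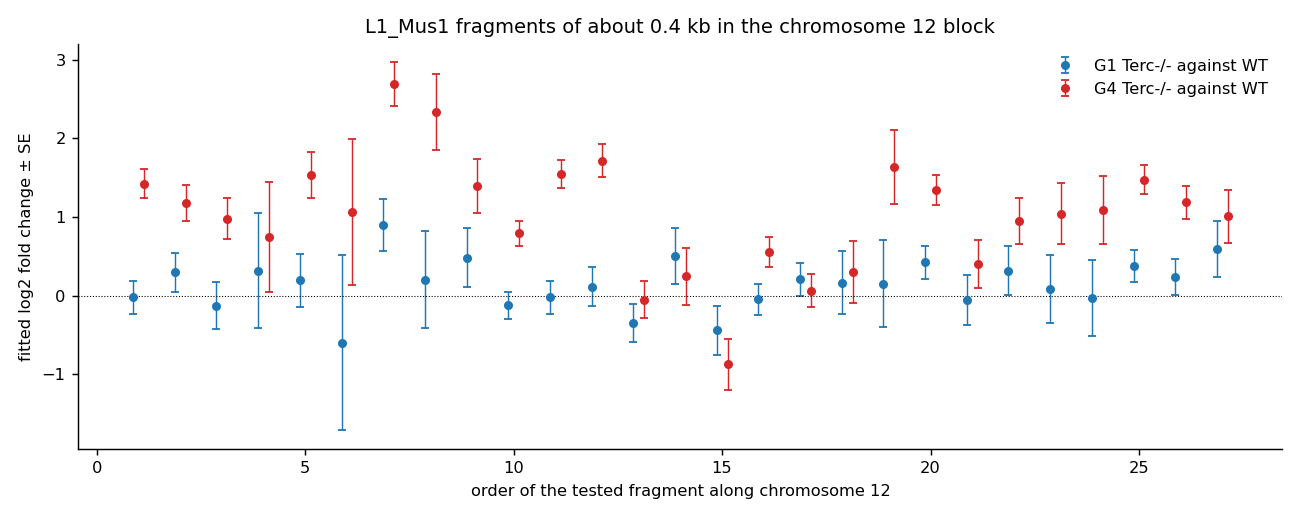
Fitted log2 fold change with SE (y axis) of the 27 tested L1_Mus1 fragments of the chromosome 12 block, in order along the chromosome (x axis), in G1 Terc-/- (blue) and G4 Terc-/- (red) against WT. Most red points lie above 0.5 and most blue points near 0, and the Zfp125 copy is the red point below -0.5.

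At the distal ends 16 copies were tested, of 119 copies within 1 Mb. In G4 Terc-/- against WT 9 of them rose and none fell, and in G1 Terc-/- against WT 4 rose and 4 fell. Over all 217 TE copies tested within 1 Mb of a distal end, 30.9% rose and 11.5% fell in G4, and 5.99% rose and 6.91% fell in G1 Terc-/- against WT. The 16 copies lay on chromosomes 2, 11, 16, 19 and Y only, and each within 0.1 Mb of the end. On chromosome 11 an L1_Mus1 copy at chr11:121941228-121942325 was at 249, 211 and 201 CPM in WT, at 370, 378 and 338 in G1 Terc-/- and at 723, 939 and 803 in G4 Terc-/- ESCs. It rose by 1.90 ± 0.10 in G4 (log2, adjusted p = 1.3e-20) and by 0.72 ± 0.11 in G1 Terc-/- against WT (adjusted p = 2.4e-06). It has whole values and lies 25886 b from the nearest gene, and all other repeats within 10 kb summed to 43.8 CPM in G4 Terc-/- ESCs.

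The other copies of this paragraph were chosen after their values were seen. On the same chromosome, a copy at chr11:121905012-121905749 rose by 2.24 ± 0.13 in G4 (adjusted p = 2.8e-20) and by 0.46 ± 0.14 in G1 Terc-/- (adjusted p = 0.029). On chromosome 19 an L1_Mus1 copy at chr19:61295182-61296288 rose by 1.77 ± 0.11 in G4 (adjusted p = 1.4e-18) and by 0.43 ± 0.12 in G1 Terc-/- (adjusted p = 0.010). Its libraries were at 138, 171 and 143 CPM in WT, at 188, 195 and 227 in G1 and at 495, 519 and 522 in G4 Terc-/- ESCs. L1_Mus1 copies at the end of chromosome 16 moved less, from a mean of 313 CPM in WT to 354 in G1 and 450 in G4 Terc-/- ESCs. At the ends of chromosomes 11, 16 and 19 the G1 mean lay between those of WT and G4. Within 20 Mb of an end, the copies within 1 Mb included, 47 copies were tested, with 21 rises and 3 falls, beside 23.2% and 17.5% of all TE copies tested there.

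**Figure D5:**
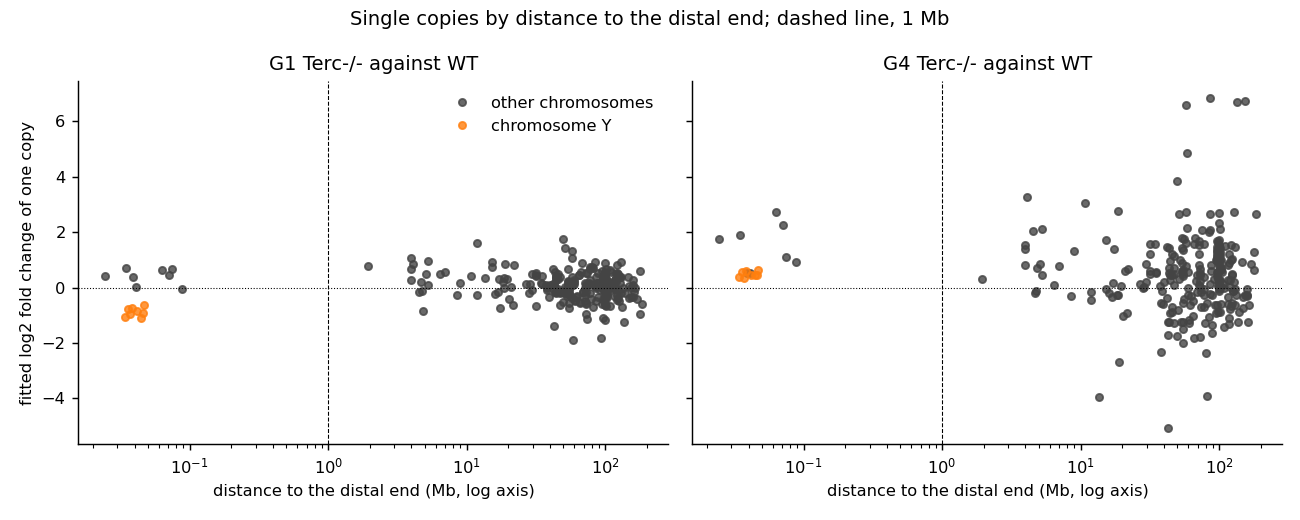
Fitted log2 fold change of each tested copy on an assembled chromosome (y axis) by its distance to the distal end (x axis, Mb, log scale), in G1 (left) and G4 Terc-/- (right) against WT; orange points are on chromosome Y and the dashed line marks 1 Mb. All points left of 1 Mb are above 0 in G4, whereas the orange points are below 0 in G1.

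L1_Mm depended on another end. Of its counts 47.2% came from copies within 1 Mb of an end, nearly all from 12 copies that span 83.8 kb at the end of chromosome Y, 8 of which were tested, in introns of Gm47283. These 12 copies summed to 878, 533 and 802 CPM in WT, to 295, 429 and 500 in G1 Terc-/- and to 1343, 867 and 945 in G4 Terc-/- ESCs. The G1 libraries lay below all others, and the WT and G4 libraries overlapped. The most abundant of them called in G1 Terc-/- against WT, chrY:90809580-90810334, was at 150, 109 and 147 CPM in WT, at 39.7, 78.1 and 73.8 in G1 and at 206, 170 and 160 in G4 Terc-/- ESCs. It had a log2 fold change of -1.08 ± 0.19 in G1 (adjusted p = 6.4e-04) and did not pass the test in G4 Terc-/- against WT (adjusted p = 0.067). A fragment at chrY:90799953-90800209 had -1.11 ± 0.29 in G1 (adjusted p = 0.016). Their reads are divided between places, and repeats of other names within 10 kb of the first copy moved likewise, from 381 CPM in WT to 190 in G1 and 518 in G4 Terc-/- ESCs. Without copies near distal ends L1_Mm stood at 0.12 in G1 against WT (log2, adjusted p = 0.27), rose by 0.27 in G4 against WT (adjusted p = 8.9e-04) and stood at 0.15 in G4 against G1 Terc-/- (adjusted p = 0.053). The fall of summed L1_Mm in G1 Terc-/- thus rested on the chromosome Y copies.

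Copies in zinc finger gene clusters also rose. On chromosome 13 between 60 and 70 Mb, where KRAB zinc finger genes are clustered, 8 of 11 tested copies rose and none fell, among them copies in Zfp369 (0.40 and 0.47, log2) and Zfp65 (1.00). Over all 216 TE copies tested there, these 11 included, 47.2% rose and 6.48% fell. In another such cluster on chromosome 2, tested from position 175019396 to 178063200, 6 of 10 copies rose and none fell, among them one in an intron of Zfp973 (2.10), beside 50.3% rising and 1.40% falling over all 143 TE copies tested, these 10 included. In these windows, chosen after the values had been seen, the share of L1_Mus copies that rose is to be read beside that of all repeats there. Across 235 tested copies with at least 10 CPM of other repeats within 10 kb (WT and G4 means added), the log2 ratio of G4 to WT of these neighbours correlated with the fold change of the copy (Pearson's r = 0.82, Spearman's rho = 0.80, across copies of the same libraries and so a description only). Of the 128 called copies among them, 117 (91.4%) shared the sign of their neighbours. No such share is given over all TE copies tested, so this is not shown to be particular to these copies.

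Place and length went along with the direction. Of the tested copies farther than 5 kb from genes 27 of 49 rose and 6 fell (median 1.04), while 43 of 152 in introns rose and 25 fell (median 0.19). Over all TE copies tested the medians were -0.25 far from genes and -0.03 in introns, where 25.2% and 19.7% rose. Of tested copies under 500 b, 43 of 81 rose and 8 fell (median 0.71), and of those of at least 5 kb 10 of 37 rose and 9 fell (median 0.06). Over all TE copies tested, 2181 of 10371 rose and 2130 fell under 500 b, and 132 of 865 rose and 215 fell at 5 kb and over. The 27 tested fragments of the chromosome 12 array, with 19 rises and 1 fall, are all in the class under 500 b. Of the 40 array fragments, 20 lie farther than 5 kb from genes. The array thus weighs on both classes. Intronic copies in the same orientation as their gene rose in 26 and fell in 9 of 76 cases, and those in antisense orientation rose in 13 and fell in 16 of 70. Over all intronic TE copies tested 19.7% rose and 17.8% fell in the same orientation, and 18.5% and 17.6% in antisense. Whether reads were counted by strand is not given in the sources used here, so orientation is that of the annotation only. No test was made between these classes. Copies far from genes were also summed by name and scaled among the copies far from genes alone. On that scale L1_Mus1 rose by 0.93 (log2, adjusted p = 8.8e-22) and L1_Mus3 by 0.32 (adjusted p = 0.0079), whereas L1_Mm had -0.55, L1_Mus2 -0.40 and L1_Mus4 -0.44 (adjusted p = 9.3e-05, 0.0065 and 0.030). As shares of all counts listed, far L1_Mm copies held 0.0216% in WT and 0.0212% in G4, and the WT and G4 libraries overlapped. Far L1_Mus2 copies held 0.0214% and 0.0238%, and far L1_Mus4 copies 0.00780% and 0.00830%. The direction for L1_Mus2 and L1_Mus4, and the size of the L1_Mm fall, thus depended on the scale.

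The most abundant L1_Mus1 copy, chr10:26106083-26110953, held 10.5% of the L1_Mus1 counts and rose by 0.55 ± 0.10 in G4 Terc-/- against WT (log2, adjusted p = 2.9e-05). Inside it the annotation places Gm4739, a processed pseudogene of 633 b, and 90.2% of its 603 31-base words occur in transcripts of Hmgb2, a gene for an abundant chromatin protein. Whether reads from Hmgb2 were counted there was not tested, and without this copy the L1_Mus1 sum rose by 0.44 as before. The second, in an intron of Sdha, a gene of the mitochondrial respiratory chain, chr13:74325088-74326718, rose by 0.46 ± 0.09 (adjusted p = 4.3e-05), while 2 copies in Sdha exons went from 256 CPM in WT to 399 in G4. The third is the chromosome 11 copy described above.

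Among L1_Mus2 copies the most abundant lay in the untranslated region of Aim2, which encodes a sensor of DNA in the cytosol, chr1:173465198-173465690. It was at 116, 103 and 122 CPM in WT, at 216, 183 and 207 in G1 and at 154, 204 and 187 in G4 Terc-/- ESCs. It rose by 0.83 ± 0.13 in G1 (adjusted p = 6.8e-06) and by 0.68 ± 0.13 in G4 Terc-/- against WT (adjusted p = 2.4e-05), and G1 and G4 libraries overlapped. Copies in introns of Nudcd1 (0.57 ± 0.14) and Cry1 (-0.70 ± 0.14), a circadian clock gene, rose and fell in G4 Terc-/- (adjusted p = 7.3e-04 and 6.0e-05).

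The most abundant L1_Mus3 copies lay in introns of Atp11b (0.48 ± 0.12), Rxylt1 (-0.30 ± 0.12) and Pop1 (0.45 ± 0.13), with adjusted p = 7.1e-04, 0.043 and 0.0048 in G4 Terc-/- against WT. The call in Rxylt1 was lost with DESeq2 size factors (adjusted p = 0.054), library totals, DESeq2 and a looser filter, and without WT replicate 1 or 2 or G4 replicate 1 or 3 (highest adjusted p, 0.21 at -0.21, without G4 replicate 1), and that in Pop1 without WT replicate 2 (0.096) or G4 replicate 2 (0.062). The most abundant L1_Mm copy, chr1:24616185-24616803, in part within the unprocessed pseudogene Gm29216, was at 168, 238 and 157 CPM in WT, at 182, 109 and 136 in G1 and at 322, 389 and 302 in G4 Terc-/- ESCs (0.85 ± 0.19, adjusted p = 0.0038). The second most abundant, chrY:90804713-90805946, had 0.59 ± 0.32 (adjusted p = 0.19). None of the 3 most abundant L1_Mus4 copies, in Galk2, Triml1 and Igsf9b, passed the test, with log2 fold changes of -0.41, -0.23 and 0.55.

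In G1 Terc-/- against WT the largest rises beside the chromosome 16 and Aim2 copies were an L1_Mus1 copy at chr8:71936670-71937685, 2041 b from Zfp617 (1.31 ± 0.37, adjusted p = 0.019), and an L1_Mus3 copy in an intron of Rnf17, a germline gene (0.90 ± 0.25, adjusted p = 0.017). The Rnf17 copy was at 29.2, 22.0 and 24.0 CPM in WT, at 32.4, 57.7 and 49.6 in G1 and at 34.1, 26.6 and 28.8 in G4 Terc-/- ESCs, so that it was highest in G1. Both calls were lost with DESeq2 (adjusted p = 0.077 and 0.083). The largest falls were the Trpm6 copy, the chromosome Y copies and an L1_Mus3 fragment in an intron of Tmem106b, chr6:13081827-13082300. This fragment was at 35.5, 32.4 and 28.8 CPM in WT, at 10.5, 14.2 and 16.5 in G1 and at 12.1, 12.8 and 15.3 in G4 Terc-/- ESCs, with -1.22 ± 0.31 in G1 (adjusted p = 0.0072, and 0.051 without G1 replicate 1). Both Terc-/- groups lay below WT and overlapped each other. Over all TE copies tested on chromosome 6, 5.85% rose and 2.58% fell in G1 Terc-/- against WT, and the shares in G4 are given above.

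In G4 against G1 Terc-/- ESCs the largest rises and falls were mostly copies already named. The chromosome 13 copy was higher in G4 by a ratio of 141 (95% counting interval 47.8 to 685). The chromosome 16 copy rose by 2.42 ± 0.15, the Zfp990 neighbour by 2.61 ± 0.47 and the 6030443J06Rik copy by 2.56 ± 0.33 on the log2 scale. Of these rises, only the chromosome 16 copy would have passed the expression filter without the G4 libraries. The Trpm6 copy, with 3 counts in G4, was higher in G1 by a ratio of 14.2 (4.54 to 71.8). The copy near Spry2, with 5 counts in G4, was higher in G1 by a ratio of 12.3 (4.97 to 39.2). Without the G1 libraries the copy near Spry2 would not have passed the expression filter, so that a difference was built into its choice. The copy near Igkv12-89 had -3.11 ± 0.35 and the Dop1a copy -2.31 ± 0.48 on the log2 scale. Adjusted p was at most 1.3e-04 for each copy named here. The 9784 copies that did not pass the filter summed to 4912 ± 638 CPM in WT, 5144 ± 533 in G1 Terc-/- and 5391 ± 821 in G4 Terc-/- ESCs (mean ± SD, n = 3), and the groups overlapped.

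Among 31 related LINE-1 names, 8 rose and 6 fell in G4 Terc-/- against WT, with a median log2 fold change of 0.02. The young families L1Md_T, L1Md_A and L1Md_Gf fell by 0.53, 0.34 and 0.59 on the log2 scale. The largest rises were those of Lx2B (0.60), Lx2A1 (0.47) and Lx3B (0.44), beside 0.44 for L1_Mus1. Against G1 Terc-/- 7 of the 31 rose and 8 fell, and in G1 Terc-/- against WT 4 rose and none fell.

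The groups also differed in genes that mark cell types, read from TE copies in their exons. Pluripotency genes had such copies in 6 of 12 cases, with summed levels of 7190 to 7734 CPM in WT, 10951 to 11721 in G1 Terc-/- and 23363 to 27466 in G4 Terc-/- ESCs. Most of it came from Tdgf1, with means of 4320, 6502 and 17117 CPM in WT, G1 and G4. Nanog, Esrrb and Tfcp2l1 were also highest in G4, whereas Zfp42 was at 5.52, 4.27 and 5.99 CPM. Primitive endoderm genes had them in 4 of 9 cases, with 759 to 830, 359 to 407 and 56.2 to 81.5 CPM, most of it from Gata4. Sparc, also on that list, went the other way, from 10.8 CPM in WT to 14.7 in G1 and 45.4 in G4, and Lin28a among the pluripotency genes was at 503, 445 and 463 CPM. Feeder fibroblast genes had them in 4 of 9 cases, with 38.7 to 61.5, 74.9 to 95.1 and 116 to 117 CPM. None of these genes was at 0 in all libraries. The part of these differences in the results above was not tested, and a change in the share of a cell type cannot be told apart from a change per cell. Totals over all listed copies were 918879 to 1137257 counts per library, which is not the sequencing depth, as reads outside TE copies are not in the tables.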

How the data were processed

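Paired-end RNA-seq reads of 9 ESC libraries were aligned to mm10 by the authors. Per the labels FastQC 0.11.9, STAR 2.5.3a and featureCounts were used, and how reads shared between copies were divided is not given in the sources used here. The deposited table holds estimated counts per TE copy, which were rounded to whole numbers for every fit. The deposited normalized signal is the rounded count divided by 1 factor per library and served only as a check. Copies were placed with GENCODE M21 and bedtools 2.31.1.

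All tests used edgeR 4.0.16 (quasi-likelihood, TMM, filterByExpr, all 9 libraries, no block) with Benjamini-Hochberg adjustment over all 13278 copies or 853 names and a threshold of 0.05. TMM factors were set separately for copies and for names. DESeq2 1.42.0 was an alternative. Totals ran from 918879 to 1137257 counts per library, and counting intervals cover counting error only. The scripts were tested on simulated data. Named copies had, by rule, a mean of at least 10 counts and groups that did not overlap: in G4 against WT the 8 copies with the largest called rises and the 8 with the largest called falls, and 4 of each in the other comparisons, plus the 3 most abundant copies of each name. Members, lists and windows were chosen with earlier results of these data known. Sequences came from GENCODE transcripts and were aligned with Biopython 1.88.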

Additional observations from a re-analysis of the deposited data

How the results depend on the processing

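Over 5 kb from genes, single copies risen and fallen numbered 24 and 4 in G4 Terc-/- against WT, 22 and 3 in G4 against G1, and 1 and 0 in G1 against WT. With whole values only, 53 rose in G4 against WT, 39 in G4 against G1 and 5 in G1 against WT, where 6 fell. Shares over all TE copies are not given for the settings of this section, so the numbers show only how calls moved. In the main fit, 25.2% of all TE copies tested over 5 kb from genes rose and 29.0% fell in G4 against WT. Of all TE copies tested with whole values, at any distance from genes, 19.7% rose and 19.8% fell. The 9 rises and 11 falls in G1 against WT became 4 rises with DESeq2, 5 with a looser filter, 2 outside exons, 6 falls with neighbouring fragments of a name summed, and 3 rises and 7 falls by fold over 2 with an unadjusted p. Leaving out 1 library gave 88 to 111 rises and 31 to 42 falls in G4 against WT, 74 to 94 and 21 to 29 in G4 against G1, and 4 to 9 and 6 to 13 in G1 against WT, the rises fewest without G1 replicate 2 or 3 (5 without WT replicate 2 or 3) and the falls fewest without WT replicate 1. Shares of library counts over 5 kb from genes were 0.189% in WT, 0.232% in G1 and 0.385% in G4. The median of single copies in G4 against G1, 0.39, was 0.039 with whole values and 0.028 with a looser filter.

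For the summed names (log2), library totals gave L1_Mus2 0.14 and L1_Mus4 0.11 in G4 against WT, and 0.057 and 0.059 in G4 against G1. Whole values gave, in G4 against WT, L1_Mm 0.13, L1_Mus2 -0.045 and L1_Mus3 -0.018; in G1 against WT, L1_Mm -0.24 (call ended) and L1_Mus3 -0.014; in G4 against G1, L1_Mus2 -0.15 and L1_Mus3 -0.0036. Over 5 kb from genes, scaled among those copies alone, G4 against WT was -0.55 for L1_Mm, -0.40 for L1_Mus2 and -0.44 for L1_Mus4, G1 against WT 0.17 for L1_Mm, -0.042 for L1_Mus3 and -0.00901 for L1_Mus4, and G4 against G1 -0.72 for L1_Mm, -0.48 for L1_Mus2 and -0.43 for L1_Mus4. Outside exons L1_Mus3 in G1 against WT was -0.0055. A fold over 2 ended every call of a summed name, at 0.35, 0.44 and 0.27 for L1_Mm, L1_Mus1 and L1_Mus3 in G4 against WT, 0.63, 0.36 and 0.23 in G4 against G1, and -0.28 for L1_Mm in G1 against WT. Without 1 library, G4 against WT ran from 0.28 to 0.43 for L1_Mm, 0.40 to 0.50 for L1_Mus1, 0.24 to 0.33 for L1_Mus3, -0.041 to 0.033 for L1_Mus2 and -0.083 to 0.084 for L1_Mus4, and L1_Mm in G1 against WT from -0.35 to -0.22.

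Some alternatives were chosen after seeing the data. Without copies near distal ends L1_Mm was 0.12 in G1 against WT and 0.15 in G4 against G1. Without the largest copy of each name, L1_Mus2 was -0.042 and L1_Mus4 0.014 in G4 against WT, and L1_Mm -0.26 in G1 against WT, where the call ended. Copies of at least 5 kb gave L1_Mus1 -0.14 and L1_Mus2 -0.15 in G4 against WT, L1_Mus1 -0.18 and L1_Mus3 -0.026 in G1 against WT, and L1_Mus1 0.037 in G4 against G1, while L1_Mus3 stayed called at 0.27 in G4 against WT and 0.30 in G4 against G1. Among named copies the L1_Mus4 copy in Triml1 ranged from -0.46 to 0.11 without 1 library, above 0 without WT replicate 1. Of 824 values of named copies under alternatives, 786 kept direction and side of the threshold, and the calls lost were mostly the G1 calls near Zfp617, in Rnf17 and at chrY:90799953 and that in Rxylt1. The causes were not tested.

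Replicate numbers did not pair the libraries (correlations of deviations for 9 same-numbered pairs, -0.015 to 0.021). With the replicate number as a block 98 copies rose and 35 fell in G4 against WT, 8 and 10 in G1 against WT, and 82 and 25 in G4 against G1, and L1_Mus1 rose by 0.44 in G4 against WT. Copies at few counts are limited by depth: a copy at 0 can only be called lower than the floor of 3 counts over a group.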

Other observations

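Pseudogenes that share words of 31 bases with transcripts of a coding gene lie inside 4 of the tested copies, of which the copy with Gm4739 is described above. Rps24-ps3 in the L1_Mus1 copy at chrX:79190355-79196303 shared 71.8% of its words with Rps24, a ribosomal protein gene, and the copy had a log2 fold change of 0.32 in G4 Terc-/- against WT (edgeR, adjusted p = 0.15). Gm16470 in the L1_Mus3 copy at chr19:40210544-40215290 shared 45.0% with Gapdh, a glycolytic gene, at 0.60 (adjusted p = 0.070). AC154343.2 in the L1_Mus2 copy at chr17:55058565-55064517 shared 75.3% with Cfap97, at 0.21 (adjusted p = 0.74). None of these 3 copies passed the test. Whether reads of the coding genes were counted in these copies was not tested.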
